A study of Danio rerio x Danio aesculapii and Danio rerio x Danio albolineatus and Danio rerio x Danio kyathit with 48 samples.

Results

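Melanophore-enriched and xanthophore-enriched libraries were compared in skin of adult hybrid fish of the genus Danio. All hybrids had D. rerio (zebrafish) mothers and fathers of 1 of 4 species (D. nigrofasciatus, D. kyathit, D. albolineatus and D. aesculapii), so every group carried 1 D. rerio and 1 paternal genome. Dissociated skin was sorted by flow cytometry on membrane-targeted reporters. Melanophores were taken by tyrp1b:mem-mCherry, and xanthophores by aox5:mem-EGFP. The 12 melanophore-enriched and 12 xanthophore-enriched libraries, 3 of each per hybrid, were taken by their labels out of 48 libraries in all. The 12 iridophore-enriched libraries (pnp4a:mem-mCherry) and 12 libraries of unenriched skin are given as background. Each library is named here by the father, the kind and the replicate number (3, 4 or 5), which is also its batch number in the labels.

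Melanophores are the black pigment cells of fish. They make melanin from tyrosine inside melanosomes, organelles related to lysosomes. Xanthophores are yellow to orange and hold pteridines, made from GTP, and carotenoids, which are taken up from the diet and stored with lipid. Both arise from the neural crest, and together with the reflecting iridophores they form the dark stripes and light interstripes of the zebrafish skin. The comparison asks which genes differ between the sorted populations in the hybrids, with the alleles of both parents added together.

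Values are polyA RNA read counts of both alleles, divided by size factors by the authors, and are called normalised values below. Summed values ran from 5453974 to 7626767 in melanophore-enriched and from 5173935 to 12500648 in xanthophore-enriched libraries. The depth behind them was estimated from the scatter of allele shares between replicates, at 35627 to 188834 molecules (median 80906.5) and 29432 to 130290 molecules (median 79118.5). Genes worth at least 5 estimated molecules on average, 2926 of 19629, were tested with limma on log2 (value + 20), a scale that understates the change of low genes. This average is over both kinds, so a gene high in 1 kind alone can reach it through that kind, which favours its call. A gene is said to be higher in 1 kind when its mean difference over the 4 hybrids had a Benjamini-Hochberg adjusted p under 0.05, and every adjusted p below is from limma with this adjustment. Differences are log2 melanophore-enriched minus xanthophore-enriched, with the standard error (SE). The labels do not say whether replicates came from separate fish, so p-values reflect variation between libraries alone, some or all of which may be technical.

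The reporter genes were examined first. Cells were sorted on reporters of tyrp1b and aox5, so the differences of these genes describe the sort and are not separate evidence. The melanophore reporter gene tyrp1b, a melanosomal enzyme gene, ran from 7325 to 99665 in the 12 melanophore-enriched libraries (median 42681). In the 12 xanthophore-enriched libraries it ran from 44 to 7584 (median 521). All but 1 of the melanophore-enriched libraries, 11 of 12, lay above the highest xanthophore-enriched one. The difference was 5.57 ± 0.68 (adjusted p = 8.74e-05), and it was positive in 12 of 12 pairs of libraries from the same hybrid and batch. The reporter genes were not equally separated. The xanthophore reporter gene aox5, an aldehyde oxidase gene, ran from 932 to 6184 in xanthophore-enriched (median 1883) and from 28 to 4676 in melanophore-enriched libraries (median 827.5). The ranges overlapped widely, with 3 xanthophore-enriched libraries above all melanophore-enriched ones. Its difference of -1.45 ± 0.46 did not pass (adjusted p = 0.0816).

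The differences of aox5 were -0.23 in aesculapii, -0.37 in albolineatus, -1.76 in kyathit and -3.44 in nigrofasciatus hybrids, and -2.06, -1.76 and 0.22 in batches 3, 4 and 5. In nigrofasciatus the xanthophore-enriched values of 6184, 5098 and 5384 stood above 28, 689 and 2238, without overlap, whereas in aesculapii 1203, 4512 and 1029 were mixed with 2770, 915 and 3730. In bulk libraries, fewer cells of a type and less RNA per cell cannot be told apart. The gene pnp4a, whose reporter marks iridophores and which encodes a purine nucleoside phosphorylase, had medians of 1698.5 in melanophore-enriched, 977 in xanthophore-enriched, 20884 in iridophore-enriched and 275 in unenriched libraries. Its difference between the first 2 was 1.17 ± 0.42 (adjusted p = 0.121). With a block for the batch it was 1.11 and passed (adjusted p = 0.0345), but with the batch as a block within each hybrid it was 1.09 and did not (adjusted p = 0.0619). It passed in 2 of the 24 single omissions.

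Among the xanthophore-enriched libraries, aesculapii 5 and albolineatus 3 stood apart. They held 4924 and 7584 of tyrp1b, against at most 1652 in the other 10. Albolineatus 3 also held 1.76% of its summed value in iridophore markers, against 0.0503 to 0.415% in the other 11. Without these 2 libraries, 86 genes were higher in melanophore-enriched and 51 in xanthophore-enriched libraries.

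Of the 2926 genes tested, 121 were called, or 4.14%. They divided into 75 higher in melanophore-enriched (2.56%) and 46 higher in xanthophore-enriched libraries (1.57%), while the median difference of all tested genes was -0.02. Of the 75, 74 had a positive difference in all 4 hybrids, and of the 46, 41 had a negative one. Within the 3 batches taken alone, 73 of the 75 and 46 of the 46 had the same direction in each. These genes were called on the mean of the same libraries, which favours the same direction in each hybrid and batch. The share with the same direction among all tested genes was not computed, so these counts are a description only. Without the libraries of batch 5, 95 of the 121 genes were no longer called. The number of genes higher in melanophore-enriched libraries was 32 without the library aesculapii xanthophore-enriched 3, 47 without kyathit xanthophore-enriched 4 and 45 without nigrofasciatus xanthophore-enriched 5. It was 92, with 69 in the other direction, when the batch was a block. Under the omission of each single library in turn, 28 of the 75 and 24 of the 46 were called every time. For a named gene whose call a single omission ended, this is given with its value. The other called genes named below were called in all 24 single omissions.

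The genes higher in melanophore-enriched libraries differed more in size. Their median difference was 1.54, and 26 of 75 exceeded 2 on the log2 scale, against a median of -1.36 and 4 of 46 beyond that size in the other direction. Set beside unenriched skin (unweighted means), 73 of the 75 were higher in melanophore-enriched libraries than in skin, and 53 of the 75 were above skin in both kinds. Of the 46, 40 were above skin in xanthophore-enriched libraries. Of these, 22 were below skin in melanophore-enriched libraries and 18 were above it in both kinds. Calls and minimum level rest on the 24 sorted libraries compared, which favours values above skin in the kind where a gene was called. The share above skin among all tested genes was not computed, so these counts are a description only. The iridophore-enriched mean exceeded the melanophore-enriched one in 11 of the 75 and the xanthophore-enriched one in 1 of the 46.

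The 25 gene lists used below were taken in part from earlier results of these data. Counts of called members are therefore a description only, and no list was tested as a set. Of these lists, genes of melanin synthesis had the largest median difference. Of 4 tested members, 3 were higher in melanophore-enriched libraries, against 2.56% of all tested genes, and the median difference was 4.04, against -0.02 over all tested genes. Of the 3, tyrp1b is the gene of the sort reporter. The others, dct and tyrp1a, reached the minimum level through melanophore-enriched libraries, which favours their calls. The gene dct, for dopachrome tautomerase, had values from 185 to 5581 (median 1275) in melanophore-enriched and from 8 to 238 (median 18.5) in xanthophore-enriched libraries. Only 2 melanophore-enriched libraries lay within the xanthophore-enriched range, and the difference was 4.04 ± 0.63 (adjusted p = 0.000257). The gene tyrp1a, a close copy of tyrp1b, differed by 4.05 ± 0.70 (adjusted p = 0.000672), with medians of 1737 and 21. Reads of the 2 copies may not have been fully separated by the authors' counting. The gene for tyrosinase itself, tyr, which performs the rate-limiting step of melanin synthesis, was low and scattered. It ran from 7 to 2645 (median 351) against 24 to 1702 (median 81), with a difference of 1.19 ± 0.66 that did not pass (adjusted p = 0.365). Together the 4 genes took 0.139 to 1.38% of the summed value in melanophore-enriched and 0.00144 to 0.164% in xanthophore-enriched libraries.

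**Figure D1:**
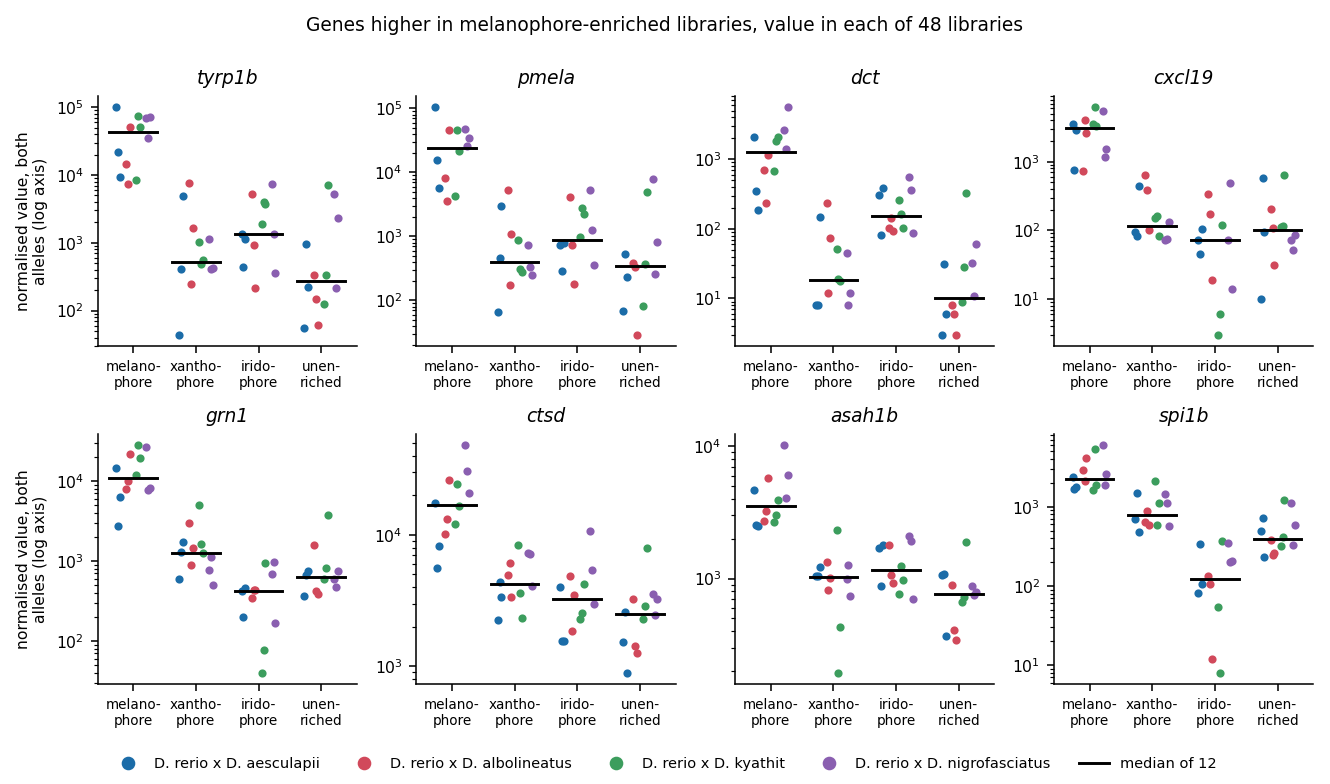
Normalised value of 8 genes (log axis) in each of 48 libraries, by kind of library, with points coloured by hybrid and bars at the median of 12 libraries. The melanin genes tyrp1b, pmela and dct stand highest in melanophore-enriched libraries with a few xanthophore-enriched libraries reaching their lower end, while cxcl19 and asah1b have 12 melanophore-enriched libraries above all 12 xanthophore-enriched ones.

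Melanosome structural genes showed the same direction with more spread. Of 10 tested melanosome proteins and transporters, 4 were higher in melanophore-enriched libraries, against 2.56% of all tested genes, none in xanthophore-enriched ones, and all 10 differences were positive (median 0.92). The gene pmela, whose product forms the fibrils on which melanin is laid down, ran from 3593 to 103653 (median 23754) against 66 to 5363 (median 397). In 10 of 12 melanophore-enriched libraries it exceeded every xanthophore-enriched one, and it differed by 5.23 ± 0.75 (adjusted p = 0.000476). The tetraspanin genes tspan10 (2.52 ± 0.71, adjusted p = 0.037) and tspan36 (0.91 ± 0.27, adjusted p = 0.0475) passed by little. They lost their calls in 13 and 14 of the 24 single omissions, at adjusted p up to 0.245 and 0.153, and tspan10 also did with the batch as a block (adjusted p = 0.0576). The xanthophore-enriched median of tspan10 was 45.5, and it too reached the minimum level through melanophore-enriched libraries. The gene mtbl had a difference of 2.64 ± 0.56 (adjusted p = 0.00664). It lost its call without xanthophore-enriched aesculapii 3 (adjusted p = 0.0597), nigrofasciatus 4 (0.06) or nigrofasciatus 5 (0.0664).

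Further melanosome genes had smaller differences. The transporter gene slc45a2 had 1.31 ± 0.47 (adjusted p = 0.121) and the melanosomal receptor gene gpr143 0.39 ± 0.29 (adjusted p = 0.54). The channel gene trpm1b, at 0.80 ± 0.26 (adjusted p = 0.0865), was above unenriched skin in both kinds, with medians of 2047.5, 1213 and 240. Of 8 tested genes of pigment organelle transport and biogenesis none was called, against 4.14% of all tested genes, and their median difference was 0.11. In that list mlpha, for the melanophilin adaptor that links melanosomes to myosin, had medians of 1426 and 672.5 against 200.5 in skin, and a difference of 0.66 ± 0.31 (adjusted p = 0.265).

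Lysosomal genes were the second large group on the melanophore side. Of 27 tested, 7 were higher in melanophore-enriched libraries and none in the other direction, against 2.56% and 1.57% of all tested genes, and 26 of 27 differences were positive (median 0.70). The gene ctsd, for the aspartic protease cathepsin D, ran from 5620 to 48081 (median 17039) against 2272 to 8362 (median 4225.5). Of 12 melanophore-enriched libraries, 10 exceeded all xanthophore-enriched ones, and the 3 libraries of each kind did not overlap in any of the 4 hybrids (1.80 ± 0.24, adjusted p = 3.56e-05). The share of all tested genes without overlap in 4 hybrids was not computed, so such a separation is a description only. The gene asah1b, for an acid ceramidase, was at 2515 to 10184 (median 3563.5) against 194 to 2316 (median 1023). All 12 melanophore-enriched libraries lay above all 12 xanthophore-enriched ones, which held for 2 of 2926 genes tested (0.0684%), and the difference was 2.05 ± 0.28 (adjusted p = 3.72e-05). Further members were lgmn, for the asparaginyl protease legumain (1.52 ± 0.25, adjusted p = 0.000476), psap, for the saposin precursor (1.0 ± 0.22, adjusted p = 0.00618), and grna, for a progranulin (1.24 ± 0.28, adjusted p = 0.00708). These 5 genes were called without any 1 library. The cathepsin B gene ctsba (0.67 ± 0.19, adjusted p = 0.0441) lost its call in 17 of the 24 single omissions.

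The short granulin gene grn1 had no overlap between the kinds in any hybrid, a description only, as for ctsd. It ran from 2699 to 27903 (median 10811.5) in melanophore-enriched and from 507 to 4960 (median 1270.5) in xanthophore-enriched libraries. Medians were lower in unenriched (629.5) and iridophore-enriched libraries (423.5). The difference was 2.99 ± 0.34 (adjusted p = 1.11e-05), with 2.33, 2.70, 3.33 and 3.60 in aesculapii, albolineatus, kyathit and nigrofasciatus hybrids. This gene stands in the lysosomal list and in the leukocyte list, so its value bears on both.

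The vacuolar ATPase acidifies lysosomes and young melanosomes. All 15 of its tested subunit genes had positive differences (median 0.62), and 3 passed, against 2.56% of all tested genes. They were atp6v1h (1.16 ± 0.28, adjusted p = 0.0127), atp6v1e1b (0.97 ± 0.28, adjusted p = 0.044) and the accessory subunit gene atp6ap2 (0.88 ± 0.23, adjusted p = 0.0237). All 3 depended on single libraries. The call of atp6v1h was lost without xanthophore-enriched aesculapii 3 or 4 (adjusted p = 0.148 and 0.0996), and that of atp6ap2 without either of these (0.14 and 0.114) or without xanthophore-enriched kyathit 4, nigrofasciatus 4 or nigrofasciatus 5 (0.0566, 0.0829 and 0.0699). That of atp6v1e1b was lost in 15 of the 24 single omissions, at adjusted p up to 0.201, and with the batch as a block within each hybrid (adjusted p = 0.0505).

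Several of the largest differences lay outside the pigment lists. The chemokine gene cxcl19 ran from 722 to 6195 (median 3122.5) in melanophore-enriched and from 72 to 637 (median 116) in xanthophore-enriched libraries. It was the second gene with no overlap between the 12 and 12 libraries, and differed by 3.48 ± 0.54 (adjusted p = 0.00037). Its medians in iridophore-enriched and unenriched libraries, 72.5 and 101.5, were like that of the xanthophore-enriched ones. The gene known by the symbol zgc:91968, a melanophore marker in the lists used here, had medians of 7709 and 536 and differed by 3.72 ± 0.42 (adjusted p = 1.24e-05). The vimentin-like intermediate filament gene viml (2.97 ± 0.56, adjusted p = 0.00254), the palmitoyltransferase gene zdhhc2 (2.83 ± 0.48, adjusted p = 0.000711) and BX284638.1 (2.78 ± 0.51, adjusted p = 0.00125) followed. All of these were called without any 1 library. The amino acid transporter family gene slc38a11 (2.92 ± 0.77, adjusted p = 0.0264) was listed at 0 to 331 (median 23) in xanthophore-enriched libraries. It reached the minimum level through melanophore-enriched libraries and stayed above it in 16 of the 24 single omissions. Of these 16, 6 ended its call, with the highest adjusted p (0.184) without xanthophore-enriched albolineatus 5.

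Iridophore markers were on the melanophore side as well. Of 12 tested, 4 were higher in melanophore-enriched libraries, against 2.56% of all tested genes, 11 differences were positive and the median was 1.73. Each tested marker had its lowest difference in batch 5. In batches 3, 4 and 5 lypc had 1.96, 2.77 and 0.65, gpnmb 2.50, 3.74 and 1.53, and ednrba, which was not called, 1.23, 1.31 and -0.62. The gene gpnmb, for a glycoprotein of melanosomes and macrophages in mammals, ran from 800 to 11096 (median 2687) against 122 to 3530 (median 286.5), and its iridophore-enriched median was 15053. Only 5 melanophore-enriched libraries lay above all xanthophore-enriched ones, and the difference was 2.83 ± 0.49 (adjusted p = 0.00125), without any 1 library as well. The transcription factor gene tfec (1.54 ± 0.42, adjusted p = 0.0331), lypc (2.17 ± 0.56, adjusted p = 0.0337) and the LIM-domain gene fhl2a (1.92 ± 0.51, adjusted p = 0.0367) passed less firmly, losing their calls in 9, 13 and 14 of the 24 single omissions. With the batch as a block within each hybrid, lypc and fhl2a did not pass (adjusted p = 0.0577 and 0.0863). The list took 0.264 to 1.45% of the summed value in melanophore-enriched (median 0.452%), 0.0503 to 1.76% in xanthophore-enriched (median 0.1355%) and 3.06 to 11.2% in iridophore-enriched libraries. Every marker was above 0 in at least 1 library of both kinds, and the part of iridophore RNA in these differences was not tested.

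On the xanthophore side, aox6 had the smallest adjusted p of the called genes. This aldehyde oxidase gene, a close copy of aox5, ran from 614 to 6347 (median 3085.5) in xanthophore-enriched and from 103 to 2134 (median 569.5) in melanophore-enriched libraries. Of 12 xanthophore-enriched libraries, 9 exceeded every melanophore-enriched one, and the 3 libraries of each kind did not overlap in any of the 4 hybrids. This separation is a description only, as for ctsd. The difference was -2.17 ± 0.25 (adjusted p = 1.01e-05), with -1.89, -1.47, -2.86 and -2.46 in aesculapii, albolineatus, kyathit and nigrofasciatus. Reads of aox5 and aox6 may not have been fully separated by the authors' counting.

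Pteridine synthesis as a list had 2 of 8 tested genes higher in xanthophore-enriched libraries, against 1.57% of all tested genes, none in the other direction and a median of -0.99. Besides aox6 this was spra, for sepiapterin reductase, at 1003 to 6313 (median 2242.5) against 675 to 4218 (median 1198), with -1.03 ± 0.23 (adjusted p = 0.00647) and a call without any 1 library. The gene gch2, for the GTP cyclohydrolase that starts pteridine synthesis, ran from 6335 to 53934 (median 19984) in xanthophore-enriched and from 4838 to 26842 (median 7029.5) in melanophore-enriched libraries. The ranges overlapped in all but 3 of the xanthophore-enriched libraries, and its -0.94 ± 0.38 did not pass (adjusted p = 0.174). Both kinds stood above unenriched skin (median 2351.5). The second sepiapterin reductase gene sprb had -1.60 ± 0.56 (adjusted p = 0.121), with -4.28 in nigrofasciatus and 0.02 in aesculapii. The sugar transporter family gene slc2a15b, needed for xanthophore pigment in medaka, leaned the other way at 1.09 ± 0.40 (adjusted p = 0.123).

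Carotenoid and lipid droplet genes gave the larger share of calls. Of 12 tested genes in the carotenoid, retinoid and lipid droplet list, 5 were higher in xanthophore-enriched libraries, against 1.57% of all tested genes. None was higher in melanophore-enriched ones, and the median was -0.96. Of the 5, uraha belongs to the urate pathway, and bco2b had a positive difference in 2 hybrids. Single omissions ended the call of bco2b in 13 of 24 cases and that of uraha in 6. The list's share of the summed value overlapped between the kinds, with medians of 1.094% in xanthophore- and 0.8286% in melanophore-enriched libraries. Its median was highest in iridophore-enriched libraries (1.565%). The perilipin gene plin6, for a lipid droplet coat protein of fish, ran from 700 to 10362 (median 4999) against 473 to 3587 (median 1437). In 8 xanthophore-enriched libraries it exceeded all melanophore-enriched ones, and it differed by -1.70 ± 0.26 (adjusted p = 0.000255). The gene bco1, for the enzyme that cleaves beta-carotene, ran from 657 to 10526 (median 3379) against 26 to 3553 (median 957), with 6 xanthophore-enriched libraries above all melanophore-enriched ones and a difference of -1.78 ± 0.41 (adjusted p = 0.0127). Both were called without any 1 library. The seipin-like gene bscl2l, whose family shapes lipid droplets, had medians of 7399.5 and 2787.5 and differed by -1.60 ± 0.37 (adjusted p = 0.0139), but not without xanthophore-enriched aesculapii 4 (adjusted p = 0.0775). The scavenger receptor gene scarb1, which takes up carotenoids, had -0.86 ± 0.29 (adjusted p = 0.0979).

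**Figure D2:**
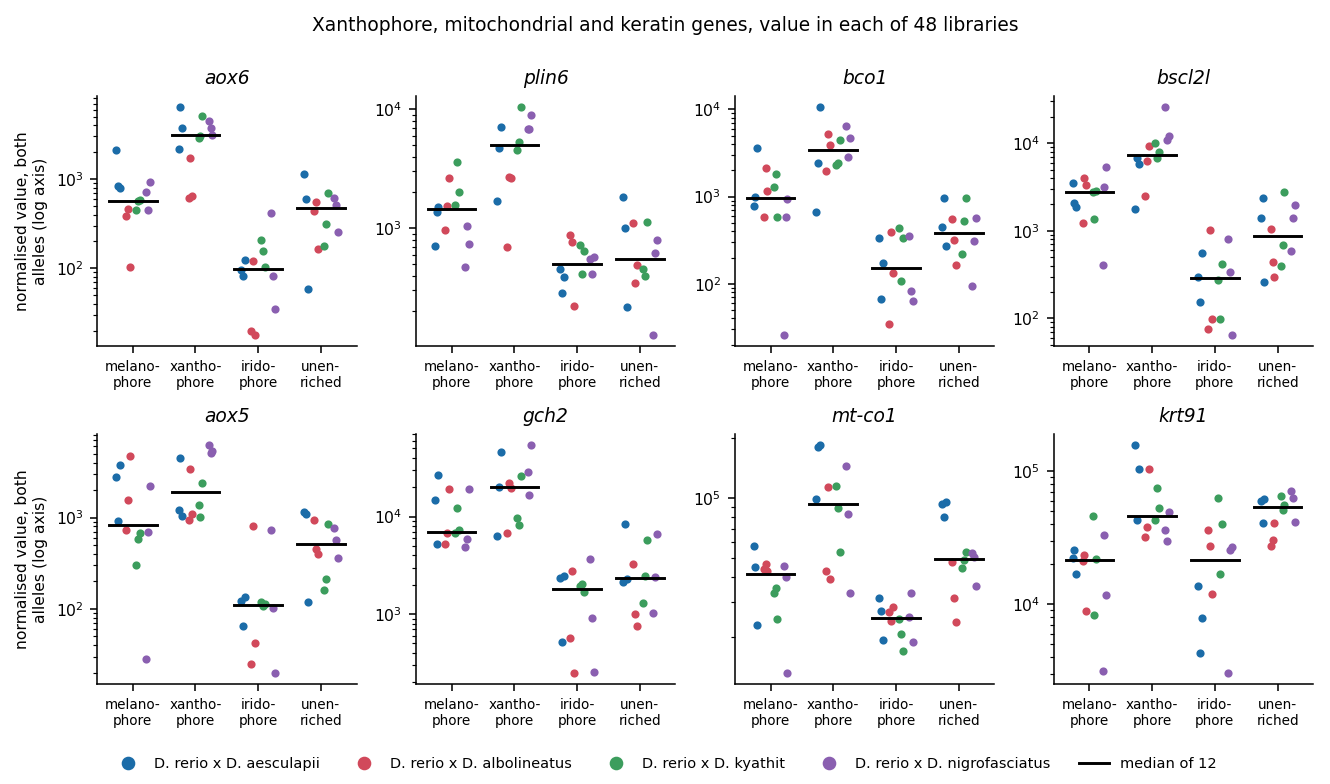
Normalised value of 8 genes (log axis) in each of 48 libraries, by kind of library, with points coloured by hybrid and bars at the median of 12 libraries. The genes aox6, plin6, bco1 and bscl2l are highest in xanthophore-enriched libraries, and aox5 and gch2 overlap between the first 2 kinds. The medians of mt-co1 and krt91 are lower in melanophore-enriched than in xanthophore-enriched libraries.

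The marker lists share members with the pigment lists above, so their counts are not separate evidence. Over all 14 tested xanthophore markers, 5 were higher in xanthophore-enriched libraries (1.57% of all tested genes were), 12 differences were negative and the median was -1.26. They took 0.235 to 2.39% of the summed value in xanthophore-enriched (median 0.783%) and 0.167 to 0.829% in melanophore-enriched libraries (median 0.399%), against 0.0608 to 0.322% in unenriched skin. The markers thus lay above skin in melanophore-enriched libraries too. Melanophore markers showed a wider gap: 7 of 13 were higher in melanophore-enriched libraries (2.56% of all tested genes were), all 13 differences were positive, and the median was 2.52. Their share was 0.3705 to 3.34% in melanophore-enriched and 0.0251 to 0.433% in xanthophore-enriched libraries, against 0.0131 to 0.265% in skin.

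The leading xanthophore-side genes outside the pigment lists were of other kinds. The gene mb, for the oxygen-binding protein myoglobin, ran from 112 to 7980 (median 514) against 5 to 336 (median 71) and differed by -2.55 ± 0.61 (adjusted p = 0.0127). It was called unless melanophore-enriched albolineatus 3 or 4, melanophore-enriched nigrofasciatus 5 or xanthophore-enriched nigrofasciatus 4 was left out (adjusted p = 0.0589, 0.0736, 0.106 and 0.071). The transcription factor gene twist3 (-1.84 ± 0.39, adjusted p = 0.00491) and fstl3, for a follistatin-like binder of activins (-1.84 ± 0.36, adjusted p = 0.00211), were called without any 1 library. The first did not overlap between kinds in any of the 4 hybrids, and 11 of its 12 xanthophore-enriched values lay above all melanophore-enriched ones. This separation too is a description only, as for ctsd. The secreted matricellular gene wisp1b had medians of 1786.5 and 455 and a skin median of 3820, so that both kinds lay below skin. It differed by -2.18 ± 0.50 (adjusted p = 0.0103), but not without melanophore-enriched nigrofasciatus 5 (adjusted p = 0.0795).

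The remaining genes among the 12 with the largest xanthophore-side difference were zgc:113337 (-2.10 ± 0.44, adjusted p = 0.00349), the secreted peptide precursor gene ecrg4a (-1.83 ± 0.47, adjusted p = 0.0218), si:dkey-251i10.2 (-1.78 ± 0.30, adjusted p = 0.000516), zgc:110339 (-1.66 ± 0.31, adjusted p = 0.00182) and si:dkey-73n8.3 (-1.61 ± 0.33, adjusted p = 0.00349). The last 3 were called without any 1 library. Leaving out melanophore-enriched nigrofasciatus 5 ended the calls of zgc:113337 (adjusted p = 0.0982) and ecrg4a (0.119), and that of ecrg4a was also lost without melanophore-enriched aesculapii 3 (0.0634), melanophore-enriched nigrofasciatus 4 (0.051) or xanthophore-enriched nigrofasciatus 5 (0.162).

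Mitochondrially encoded genes formed a uniform group on the xanthophore side. Of 13 tested, 12 were higher in xanthophore-enriched libraries, against 1.57% of all tested genes, and all 13 differences were negative (median -1.32). These 12 are part of the 46 xanthophore-side calls. As genes of 1 genome they are not 12 separate observations. The cytochrome oxidase gene mt-co1 ran from 33531 to 184017 (median 93728.5) against 13261 to 57713 (median 41593). In 8 xanthophore-enriched libraries it exceeded all melanophore-enriched ones, and it differed by -1.36 ± 0.25 (adjusted p = 0.00114). The NADH dehydrogenase subunit genes mt-nd2, mt-nd3 and mt-nd4 had -1.45 ± 0.27, -1.61 ± 0.39 and -1.36 ± 0.27, and the ATP synthase gene mt-atp6 had -1.44 ± 0.26 (adjusted p from 0.00104 to 0.0127). Of the 12 calls, that of mt-atp8 was lost in 11 of the 24 single omissions. The exception to the calls, mt-nd4l, had -1.19 ± 0.35 (adjusted p = 0.0502). The median difference of the list was -2.07 in aesculapii, -0.47 in albolineatus, -1.39 in kyathit and -1.50 in nigrofasciatus hybrids.

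The share of the summed value in these 13 genes was 2.345 to 10.8% in xanthophore-enriched libraries (median 5.93%), 1.12 to 3.45% in melanophore-enriched (median 2.87%), 1.14 to 5.64% in unenriched and 1.08 to 2.31% in iridophore-enriched libraries. Melanophore-enriched libraries were thus near unenriched skin and xanthophore-enriched ones above it. A high mitochondrial share is also used as a sign of stressed or broken cells, and its part in the difference was not tested. As a check on the allele counting, at most 0.004% of the values of these maternally inherited genes came from the paternal table in any kind of library.

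Pigment lineage transcription factors gave 2 calls among 10 tested genes, and receptors and ligands gave 0 among 8. Over all tested genes 4.14% were called. Of 10 tested transcription factor genes, tfap2e, for an AP-2 factor, and tfec were higher in melanophore-enriched libraries, against 2.56% of all tested genes, none was higher in xanthophore-enriched ones, and the median was 0.15. The gene tfap2e ran from 247 to 3113 (median 838.5) against 9 to 923 (median 240.5), with 34.5 in skin, and differed by 2.02 ± 0.53 (adjusted p = 0.0271). Its call was lost without melanophore-enriched kyathit 4 (adjusted p = 0.053) or without xanthophore-enriched aesculapii 3 (0.11), kyathit 4 (0.0535), kyathit 5 (0.0569), nigrofasciatus 4 (0.112) or nigrofasciatus 5 (0.114). The gene pax7b, for a paired-box factor of xanthophores, had -1.23 ± 0.39 (adjusted p = 0.0716). The neural crest factor gene sox10 had 0.44 ± 0.38 (adjusted p = 0.61).

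No gene of 8 tested receptors and ligands was called (median 0.50). The receptor gene csf1ra, needed by xanthophores, had medians of 332 and 378 in melanophore- and xanthophore-enriched libraries against 131.5 in skin, and a difference of 0.07 ± 0.30 (adjusted p = 0.941). The melanocortin receptor gene mc1r had 0.80 ± 0.36 (adjusted p = 0.227). Several defining genes fell below the minimum level and were not tested, among them mitfa, kita, oca2, slc24a5, pax7a, xdh and igsf11. Of these, oca2, a melanosome membrane protein gene, had medians of 133 and 2, and the melanosomal ion exchanger gene slc24a5 had 201.5 and 4. In the list of stripe pattern and contact genes, tspan36 was the 1 call among 10 tested (median -0.11). Of 15 purine synthesis and one-carbon genes, gda, for guanine deaminase, was the 1 call (2.37 ± 0.55, adjusted p = 0.00953, without any 1 library as well), on the melanophore side, and the list's median was -0.18. For each list in this paragraph, the share called among all tested genes was 4.14%, so few calls are no trait of these lists.

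**Figure D3:**
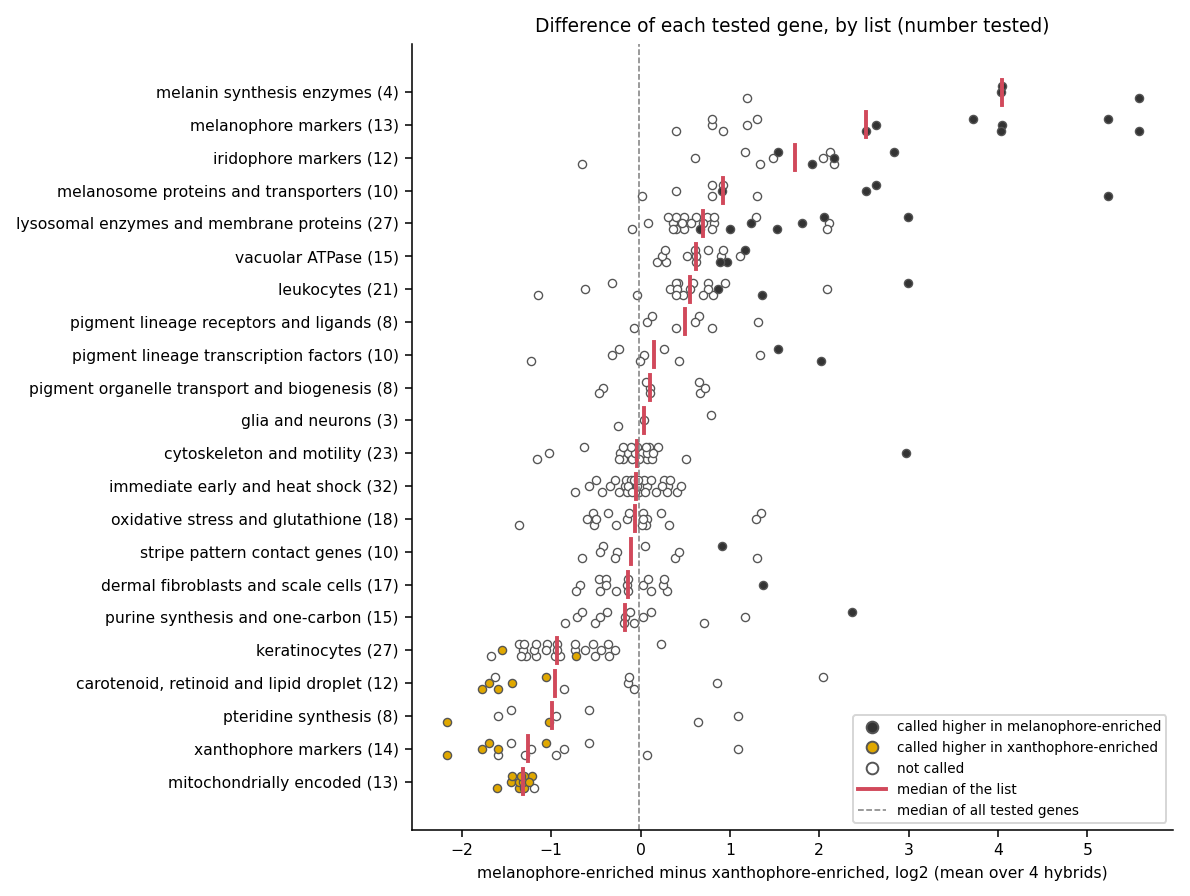
Difference between melanophore- and xanthophore-enriched libraries (log2, mean over 4 hybrids) for each tested gene of 22 lists, with the number tested beside each name. Filled points are called genes, red bars list medians (4.04 for melanin synthesis, -1.32 for mitochondrially encoded genes), and the dashed line is the median of all tested genes, -0.02.

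Markers of other skin cells were uneven between the kinds. Of 21 tested leukocyte genes, 3 were higher in melanophore-enriched libraries, against 2.56% of all tested genes, and none in xanthophore-enriched ones, with 17 positive differences and a median of 0.56. The gene spi1b, for the myeloid transcription factor PU.1, ran from 1619 to 5978 (median 2243.5) against 478 to 2109 (median 794.5) and differed by 1.36 ± 0.28 (adjusted p = 0.0033, without any 1 library as well). The others were grn1 and the chemokine receptor gene cxcr4b (0.87 ± 0.23, adjusted p = 0.0264). The latter was lost without xanthophore-enriched aesculapii 3 (adjusted p = 0.092), melanophore-enriched albolineatus 3 (0.0525), melanophore-enriched kyathit 4 (0.053), xanthophore-enriched nigrofasciatus 5 (0.0507) or both xanthophore-enriched libraries that stood apart (0.0635). Macrophage genes that did not pass included mpeg1.1, at 0.33 ± 0.38 (adjusted p = 0.729), and c1qb, at 0.76 ± 0.26 (adjusted p = 0.0908). Members of the list that were not called also lay on the other side. In batches 3, 4 and 5 mpeg1.2 had -1.38, -0.32 and 0.41 and apoeb -0.77, -1.37 and -0.53, while mpeg1.1 had -1.01, 1.32 and 0.73.

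Leukocyte markers took 1.32 to 2.91% of the summed value in melanophore-enriched libraries (median 2.07%), 0.417 to 2.91% in xanthophore-enriched (median 1.14%), 0.566 to 1.25% in unenriched and 0.157 to 0.84% in iridophore-enriched libraries. None of the 32 markers in the files was at 0 in all libraries of a kind. The lysosomal genes, cxcl19, grn1 and gpnmb moved in the same direction as this list, and the part of leukocyte RNA in their differences was not tested.

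Keratinocyte markers lay on the xanthophore side. Of 27 tested, 2 were higher in xanthophore-enriched libraries, against 1.57% of all tested genes, none in the other direction, and 26 differences were negative (median -0.94). These are means over the batches, and batch 4 did not show the direction throughout. In batches 3, 4 and 5 epcam had -2.56, 0.68 and -2.98, and krt97 -1.24, 1.99 and -3.34. Other markers were negative in each batch, such as krt5 (-1.74, -0.26 and -2.40) and krt91 (-1.71, -1.11 and -2.38). The keratin gene krt91 ran from 29601 to 156050 (median 46188.5) in xanthophore-enriched and from 3133 to 46202 (median 21449) in melanophore-enriched libraries, and 53476 was its median in skin. Its -1.55 ± 0.37 (adjusted p = 0.017) did not pass with the batch as a block (-1.61, adjusted p = 0.0598), nor without xanthophore-enriched aesculapii 3, kyathit 4 or nigrofasciatus 4 (adjusted p = 0.0575, 0.0563 and 0.0516). The annexin gene anxa1a had -0.73 ± 0.21 (adjusted p = 0.0483) and lost its call in 17 of the 24 single omissions, at adjusted p up to 0.127. The list's share was 0.9915 to 4.70% in melanophore-enriched, 2.21 to 8.82% in xanthophore-enriched and 2.30 to 5.83% in unenriched libraries, and none of its 34 genes was at 0 in all libraries of a kind. The xanthophore-side genes above had the same sign as this list, and the part of keratinocyte RNA in their differences was not tested. The list's median differences were -1.65, -0.47, -0.68 and -0.80 in aesculapii, albolineatus, kyathit and nigrofasciatus. Those of the xanthophore markers were -0.23, -0.70, -1.26 and -2.70 in the same order. Those of the mitochondrially encoded genes were -2.067, -0.475, -1.394 and -1.498. Whether these orders are alike was not tested.

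Fibroblast and scale markers did not divide the kinds in this way: of 17 tested only fn1b, for fibronectin, was called (1.37 ± 0.33, adjusted p = 0.0127) and the median was -0.14. Their share was 0.7635 to 5.35% in melanophore-enriched and 1.17 to 5.19% in xanthophore-enriched libraries, against 2.53 to 19.75% in skin. Few genes of endothelium (2), erythrocytes (2), muscle (2) and glia and neurons (3) reached the minimum level, and none was called. Their medians were -2.16, 0.18, -0.24 and 0.04. The endothelial gene plvapb ran from 14 to 3668 (median 451) in xanthophore-enriched and from 9 to 217 (median 71) in melanophore-enriched libraries, with -2.47 ± 0.85 (adjusted p = 0.101). The immediate early and heat shock list, which responds to dissociation, had 0 calls among 32 tested (median -0.05), and the oxidative stress and glutathione list 0 among 18 (median -0.06). In the cytoskeleton and motility list viml was the 1 call among 23 (median -0.04). Each count in this paragraph stands beside 4.14% called among all tested genes, so few calls are no trait of these lists.

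**Figure D4:**
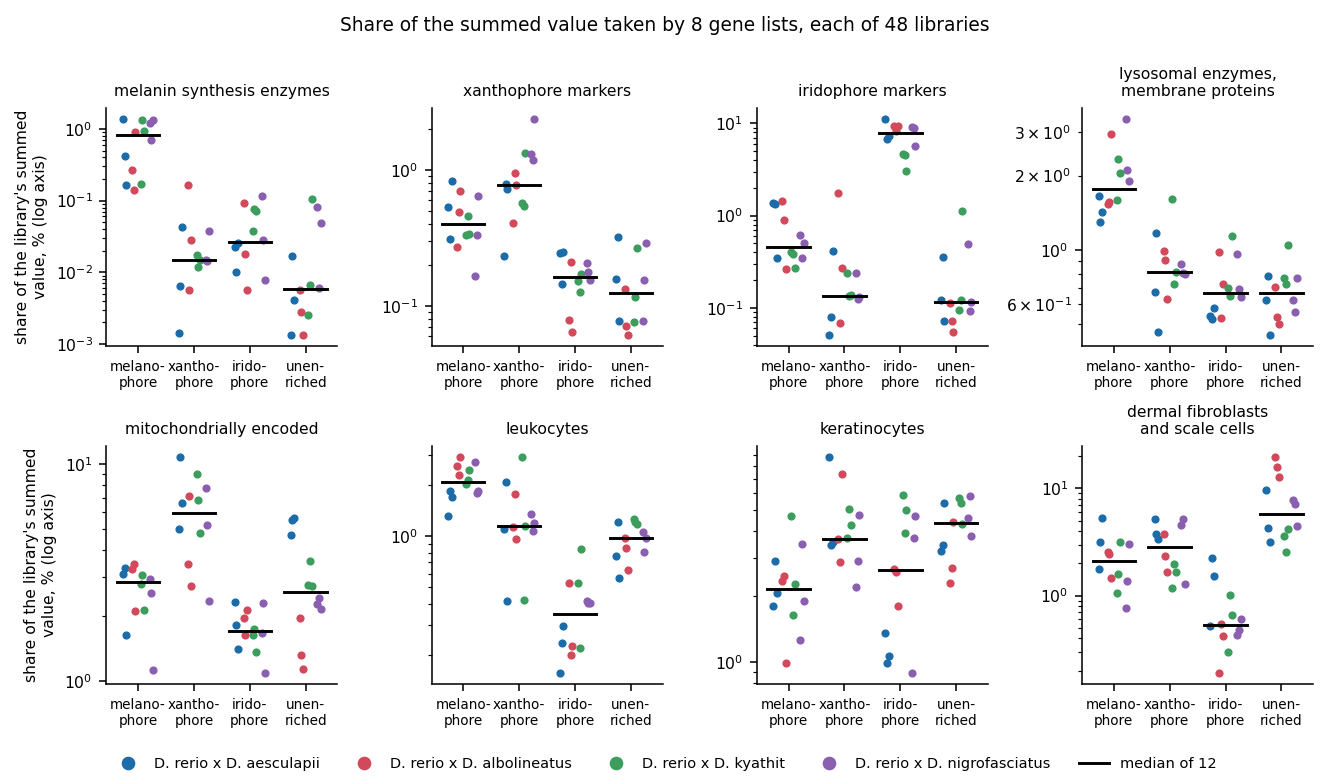
Share of each library's summed normalised value (%, log axis) taken by 8 gene lists in 48 libraries, by kind, with points coloured by hybrid and bars at the median of 12. Melanin synthesis genes reach 1.38% in melanophore-enriched libraries, mitochondrially encoded genes 10.8% in xanthophore-enriched ones, and the leukocyte median is higher and the keratinocyte median lower in melanophore-enriched than in xanthophore-enriched libraries.

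Within single hybrids, with 3 libraries of each kind, fewer genes could be called. In kyathit 17 genes were higher in melanophore-enriched (0.581%) and 9 in xanthophore-enriched libraries (0.308%), and in nigrofasciatus 13 each (0.444%). In aesculapii and albolineatus limma called 0 genes, with 151 (5.16%) and 175 (5.98%) at an unadjusted p under 0.05, against 286 (9.77%) and 270 (9.23%) in the others. With the batch as a block within hybrids, the counts were 3 in aesculapii and 43 in nigrofasciatus. The median SE of the 121 genes called over the 4 hybrids was 0.749 in aesculapii, 0.546 in albolineatus, 0.558 in kyathit and 0.702 in nigrofasciatus. Both kyathit and nigrofasciatus called the same 10 genes, which was 10 of 26 in each.

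These 10 genes were tyrp1b, tyrp1a, dct, zgc:91968, grn1, asah1b and ctsd on the melanophore side and aox6, mdh1aa and si:dkey-251i10.2 on the xanthophore side. Among them, tyrp1b is the gene of the sort reporter. Differences in aesculapii and albolineatus had the same signs except for mdh1aa, which had 0.0021 in aesculapii. For aox6 they were -1.89 and -1.47 in aesculapii and albolineatus, and for ctsd 1.33 in both. The gene mb, called in kyathit and not in nigrofasciatus, had -4.65 and -1.72 there.

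The size of the difference among hybrids was tested in the same fit. By limma's F test no gene of 2926 passed after adjustment, and 60 (2.05%) had an unadjusted p under 0.05. That is fewer than a share of 0.05, which would be expected with no difference among hybrids. The genes that follow are thus described only as those ranked first, and no difference among hybrids is shown for them. The smallest p-values were those of fn1b, bco2b, zyx, pxna, uraha and malt3 (unadjusted p from 0.000986 to 0.00765, all with adjusted p = 0.999). For bco2b, a carotenoid oxygenase gene, melanophore-enriched values of 388, 54 and 220 stood below xanthophore-enriched ones of 2410, 1094 and 2923 in kyathit. In nigrofasciatus 152, 472 and 2451 stood below 7008, 6035 and 6587. In aesculapii 630, 860 and 2934 overlapped 719, 898 and 5297, and in albolineatus 1122, 3074 and 2385 overlapped 905, 1404 and 1427.

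The differences of bco2b were thus 0.30, 0.51, -3.17 and -3.41 in aesculapii, albolineatus, kyathit and nigrofasciatus, and its mean of -1.44 ± 0.40 (adjusted p = 0.0343) was lost in 13 of the 24 single omissions, at adjusted p up to 0.0787. The urate pathway gene uraha had 0.81, -1.36, -1.02 and -2.65, with a mean of -1.06 ± 0.28 (adjusted p = 0.0237) that 6 single omissions ended, at adjusted p up to 0.13 without xanthophore-enriched aesculapii 4. The gene fn1b had -0.56, 0.13, 2.01 and 3.90. Its nigrofasciatus values were 482, 1349 and 1167 against 35, 148 and 26, without overlap, while in aesculapii 1685, 448 and 563 overlapped 646, 1064 and 1437. Its mean call was lost without xanthophore-enriched aesculapii 3 or 4 or nigrofasciatus 3 or 5 (adjusted p = 0.0833, 0.0716, 0.0901 and 0.0723).

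The focal adhesion genes zyx, for zyxin, and pxna, for paxillin, and the gene malt3 were not called over the 4 hybrids. Their means were 0.22 ± 0.32, 0.34 ± 0.40 and 0.60 ± 0.42 (adjusted p from 0.49 to 0.808). In aesculapii they had -1.38, -1.98 and -1.74 and in nigrofasciatus 2.65, 2.95 and 2.77. The xanthophore markers had median differences of -0.23, -0.70, -1.26 and -2.70 in aesculapii, albolineatus, kyathit and nigrofasciatus, and the melanophore markers 2.0, 1.67, 3.03 and 3.38. Whether these medians differ among hybrids was not tested for the lists.

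**Figure D5:**
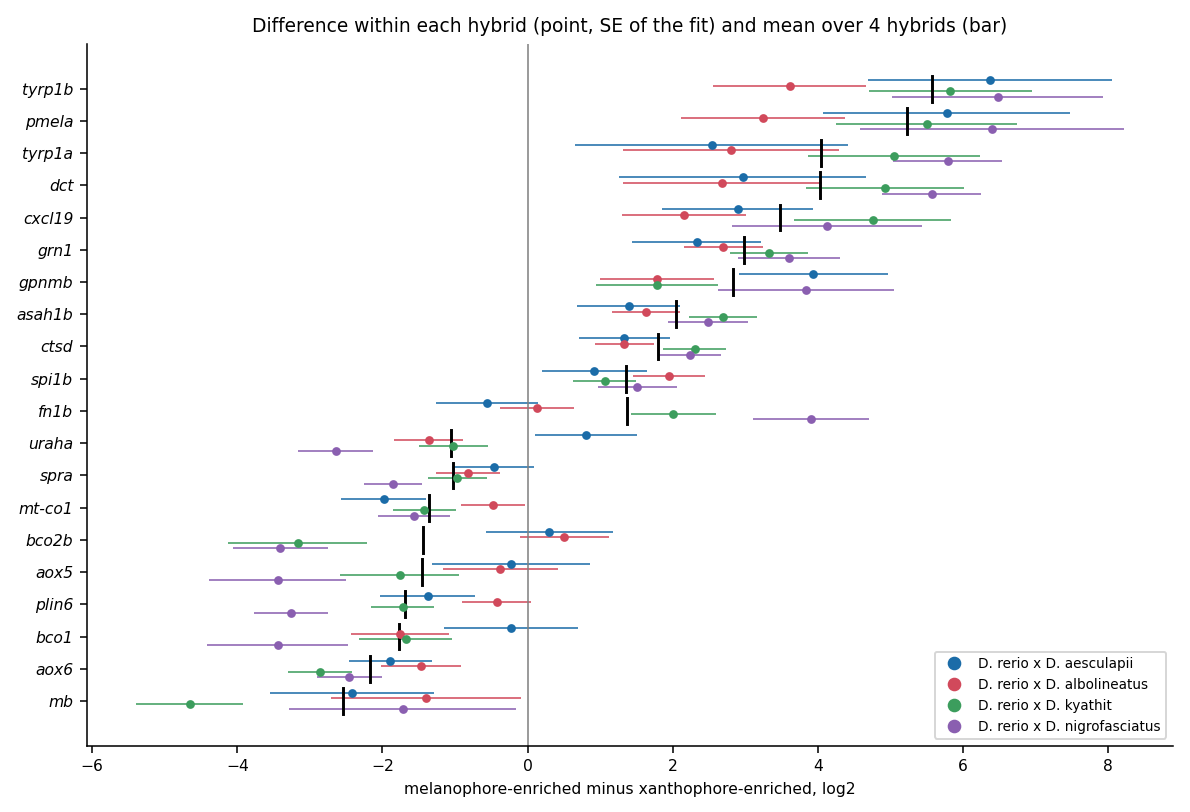
Difference between melanophore- and xanthophore-enriched libraries (log2) within each hybrid for 20 genes, as points with the SE of the fit and a bar at the mean over 4 hybrids. Melanin and lysosomal genes are positive in all 4 hybrids, aox6, mt-co1 and spra are negative in all 4, and fn1b, uraha and bco2b have both signs.

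Of all calls, 6 of 75 and 2 of 46 passed under every alternative in which they were tested, including the omission of each library, each replicate number and each hybrid. They were zgc:91968, grn1, zdhhc2, asah1b, ctsd and lgmn on the melanophore side and aox6 and mt-nd2 on the xanthophore side. The reporter gene tyrp1b failed in 1 of 46 alternatives, without the libraries of batch 5 (adjusted p = 0.113).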

How the data were processed

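RNA of 48 libraries was measured, and 24 enter the tests here. The deposited unit is a score: per the file headers and values, allele counts per gene that the authors divided by size factors and rounded, in 1 table per parental allele. Recomputing the size factors for the 96 allele columns gave 0.997 to 1.0029. Per the labels, cDNA was made with a SMART-seq2 kit and sequenced in paired-end mode after Nextera preparation. The submitters' processing notes name GRCz11, featureCounts and DESeq2 1.44.0 without their roles. For the aligner, filters and the variants that separate alleles, the entry is "not given in the sources used here".

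The 2 alleles were added. Because the values are not raw counts, no count model was used. Depth was estimated by non-negative least squares (SciPy 1.17.1) on the scatter of allele shares between replicates, over genes with summed values from 300 to 3000. It also absorbs real spread between replicates, so no counting interval is given. Genes with a mean of 5 or more estimated molecules over the 24 libraries were fitted with limma 3.58.1 in R 4.3.3 on log2 (value + 20), with a mean per hybrid and kind, weights per library taken from a lowess curve (span 0.3) of scatter on level, and moderated variances with trend and robust settings. The contrast averaged the differences found inside the 4 hybrids. Tests were two-sided, adjusted by Benjamini-Hochberg over all 2926 genes, at 0.05. The fit was also run on simulated data. These had independent noise of a single fixed dispersion and no shifts in cell make-up between replicates, so they give no error rate for the libraries here.

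The labels make the replicate number a batch number, so the likeness of same-numbered libraries was examined in pairs. The main fit held no term for batch or pair. The deviations of the 12 melanophore-enriched and xanthophore-enriched pairs from their group means had correlations across genes from -0.214 to 0.176 (median 5e-04), 3 of them over 0.1. Fits with a replicate block were run beside the main one. Spearman correlations across genes between replicates were 0.703 to 0.822 in melanophore-enriched and 0.712 to 0.795 in xanthophore-enriched groups.

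The 25 gene lists were taken from what is known of the genes and from earlier results of these data. The libraries compared were also chosen with such results known. Genes are named by rule: the 12 with the largest difference in each direction and 1 sign in all hybrids among those called, the 3 reporter genes, up to 4 called members of each list by size of the difference, members whose role is explained, and the 6 with the smallest F test p. Sequences are not shown.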

Additional observations from a re-analysis of the deposited data

How the results depend on the processing

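The main counts were 75 genes higher in melanophore-enriched and 46 higher in xanthophore-enriched libraries. No called gene changed sign under any alternative. Other pseudocounts, other filters, recomputed size factors, upper-quartile scaling, no precision weights, a fit of all 48 libraries and the D. rerio allele alone kept both counts within 1.5 times. The number of genes tested differed: 653 with a filter of 20 molecules, 1414 with the D. rerio allele alone and 19623 with no filter, so the shares called were unlike. The genes called were not all the same either. A filter of 20 molecules kept 32 and 28 of the main calls, the D. rerio allele alone 46 and 32, no filter 48 and 32, and the fit of all 48 libraries 61 and 38. With the replicate block the counts were 92 and 69, and 73 and 61 with a block within hybrids. Of the main calls, the replicate block kept 73 and 45, and the block within hybrids 55 and 39. The paternal allele alone gave 44 and 16, with 1410 genes tested. The 12 mitochondrially encoded calls could not recur there, since at most 0.004% of their values were paternal. Leaving out single libraries or a replicate number in every group gave 13 to 103 and 18 to 55. Without the albolineatus hybrid 44 genes were higher in melanophore-enriched libraries, without kyathit 35 and 21, and without nigrofasciatus 25 and 19 in the order above. Without the 3 libraries under 40000 molecules, an alternative added after the data were seen like that without the 2 libraries that stood apart, they were 40 and 25. These omissions also remove samples.

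Counts within a hybrid moved more. In kyathit they were 13 with a pseudocount of 5, 45 with 100, 49 with a filter of 2 molecules, 74 with no filter, 8 with no precision weights and 15 without the 3 shallow libraries (main 26, 0 to 58 with libraries left out). In nigrofasciatus they were 68 with a filter of 2 molecules, 133 with no filter, 48 with no weights, 17 with all 48 libraries, 43 with the replicate block within hybrids and 17 without the 3 shallow libraries (main 26, 12 to 31). In aesculapii (main 0, 0 to 0 with libraries left out) they were 1 with a filter of 2 molecules, 3 with the block within hybrids and 4 with the D. rerio allele alone. In albolineatus (main 0, 0 to 2) they were 16 with no filter and 1 without the 2 libraries that stood apart. The F test (main 0, 0 to 0) called 2 genes with no filter and 1 with the paternal allele alone. The cause of these moves was not tested. The genes that turned negative had not been called: zyx (-0.0031 to 0.38 with a replicate number left out, -0.59 without nigrofasciatus), pxna (-0.53) and malt3 (-0.12), the last 2 without nigrofasciatus.

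Depth of 29432 to 188834 estimated molecules left 2926 of 19629 genes above the minimum level of the main fit, and mitfa was among those below it. The groups hold 3 libraries each, and calls that a single omission ended are given as such beside their values.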

Other observations

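Further genes outside the lists that were called higher in melanophore-enriched libraries are given here, chosen after their values were seen. They were cd7al (2.55 ± 0.53, adjusted p = 0.00405), fybb (1.99 ± 0.38, adjusted p = 0.00182), fermt3b (2.0 ± 0.52, adjusted p = 0.0233), the chemoattractant receptor gene cmklr1 (1.13 ± 0.27, adjusted p = 0.0139), cd22 (1.07 ± 0.28, adjusted p = 0.0231) and ccr9a (1.02 ± 0.28, adjusted p = 0.0335), all by limma. The first 2 were called without any 1 library, and fermt3b lost its call in 6 of the 22 omissions in which it was tested. Of 24 omissions, 3 ended the call of cmklr1, 4 that of cd22 and 12 that of ccr9a. In cmklr1 the medians were 7582 in melanophore-enriched, 3686 in xanthophore-enriched, 660.5 in iridophore-enriched and 1546 in unenriched libraries. In ccr9a unenriched skin was highest, at 8328.5, against 5284 and 1891.

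The genes that follow were also chosen after their values were seen. The metallothionein gene mt2 had medians of 596 and 73.5 in melanophore- and xanthophore-enriched libraries (2.29 ± 0.53, limma adjusted p = 0.0103). It was tested in 17 of the 24 single omissions and lost its call without xanthophore-enriched nigrofasciatus 5 (adjusted p = 0.0664). The zinc exporter gene slc30a1a had 1079 and 339 (1.72 ± 0.41, adjusted p = 0.0127). Both exceeded unenriched skin, at 79.5 and 397.5, in melanophore-enriched libraries. The basement membrane collagen genes col4a1 and col4a2, which lie side by side in vertebrate genomes, had 1.43 ± 0.31 and 1.17 ± 0.33 (adjusted p = 0.00633 and 0.0384). The call of col4a1 was lost without xanthophore-enriched nigrofasciatus 5 (adjusted p = 0.0851), and that of col4a2 in 13 of the 24 single omissions, at adjusted p up to 0.17. On the xanthophore side the cytosolic malate dehydrogenase gene mdh1aa ran from 4593 to 43491 (median 12953) against 2719 to 11845 (median 4148), with -1.34 ± 0.25 (adjusted p = 0.00166). The surface glycoprotein gene thy1 had medians of 8046 and 4314 (-0.80 ± 0.20, adjusted p = 0.0168).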
